A study of Mus musculus with 16 samples.

Results

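The members described here are the amino acid transporter families of visceral adipose T cells. They are all rows of the expression table whose gene symbol begins with Slc1a, Slc3a, Slc6a, Slc7a, Slc36a, Slc38a or Slc43a followed by a number, which gave 61 of the 19540 genes listed. Of these, 57 are transporter genes and 4 (Slc6a19os, Slc7a6os, Slc36a1os and Slc36a3os) are genes on the strand opposite a transporter whose symbol begins the same way. A value of 10 or more in at least 3 libraries was reached by 42 members. These 42 were tested, and 19 members were at 10 or more in all 16 libraries.

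The libraries come from sorted T cells of the visceral fat (VAT) of C57BL/6JRcc mice aged 12 weeks. They hold RNA of either Treg, the regulatory cells marked by Foxp3 that restrain immune responses, or Tconv, the conventional T cells. By sample title there were 3 libraries of Treg WT, 4 of Treg KO, 4 of Tconv WT and 5 of Tconv KO. In KO mice the floxed Hpgd gene, which encodes the enzyme that inactivates prostaglandin E2, is deleted by a Cre (Foxp3-YFP-Cre) expressed from Foxp3 and so in Treg. Tconv KO are therefore Tconv from mice with that deletion in Treg. Since 1 mouse line label stands on all 16 samples, the titles alone give the genotype, and the alleles that the WT controls carry are not stated in the labels. The series text counts 5 deleted and 4 WT animals without tying libraries to animals, so p-values measure the spread between these libraries, which may be partly technical.

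T cells import amino acids as building blocks and as signals for the kinase complex mTORC1. Slc3a2 (CD98) is the heavy chain that carries Slc7 light chains to the cell surface, where Slc7a5 exchanges large neutral amino acids. Slc1a5 and the Slc38 carriers bring in glutamine and other small neutral amino acids, Slc7a1 brings in arginine and lysine, and Slc38a9 senses arginine on the lysosome. Most Slc6 carriers use sodium and chloride and move neurotransmitters, creatine, taurine, glycine or proline.

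Values are size-factor-normalised read counts with 1 added, so a gene without reads is listed at 1 and is called unread below. Libraries held 3390220 to 9262221 reads, except Tconv KO 3 with 56653889, and the value of 3 reads lay between 1.38 and 7.09. Foxp3 was 279 to 616 in Treg and 1 to 39.3 in Tconv libraries. The T cell genes Cd3e (1401 to 2497.5) and Cd4 (3859 to 7949) were read in all 16. Hpgd was 73.1, 56.0 and 4.31 in Treg WT, and 3.41, 2.54, 2.42 and unread in Treg KO, so the library labelled Treg WT 3 was near the KO level. Tconv WT 1 stood apart by the neutrophil gene S100a8 (10195, against at most 37.5 elsewhere), Tconv WT 3 by the globin gene Hba-a1 (37008), and Tconv KO 3 by its depth. These 3 also had the highest Tconv values of 2 genes of type 2 lymphocytes. Il5 was 426 to 940 in them, against at most 52.4 in other Tconv, and Il1rl1 1566 to 2548, against at most 201. Leaving these 3 out below therefore also removes the Tconv libraries highest in these genes.

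The transporter genes together took a similar share of reads in each group. Of all reads, Treg WT libraries gave them 0.233% ± 0.0245 (SD, n = 3) and Treg KO libraries 0.232% ± 0.0377 (n = 4). The share was 0.244% ± 0.0182 for Tconv WT (n = 4) and 0.259% ± 0.0146 for Tconv KO (n = 5). The ranges of all groups overlapped. In bulk samples, fewer cells of a type and less RNA per cell cannot be told apart. The map of members by library shows a block of members read throughout and many that were read in a few libraries.

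**Figure D1:**
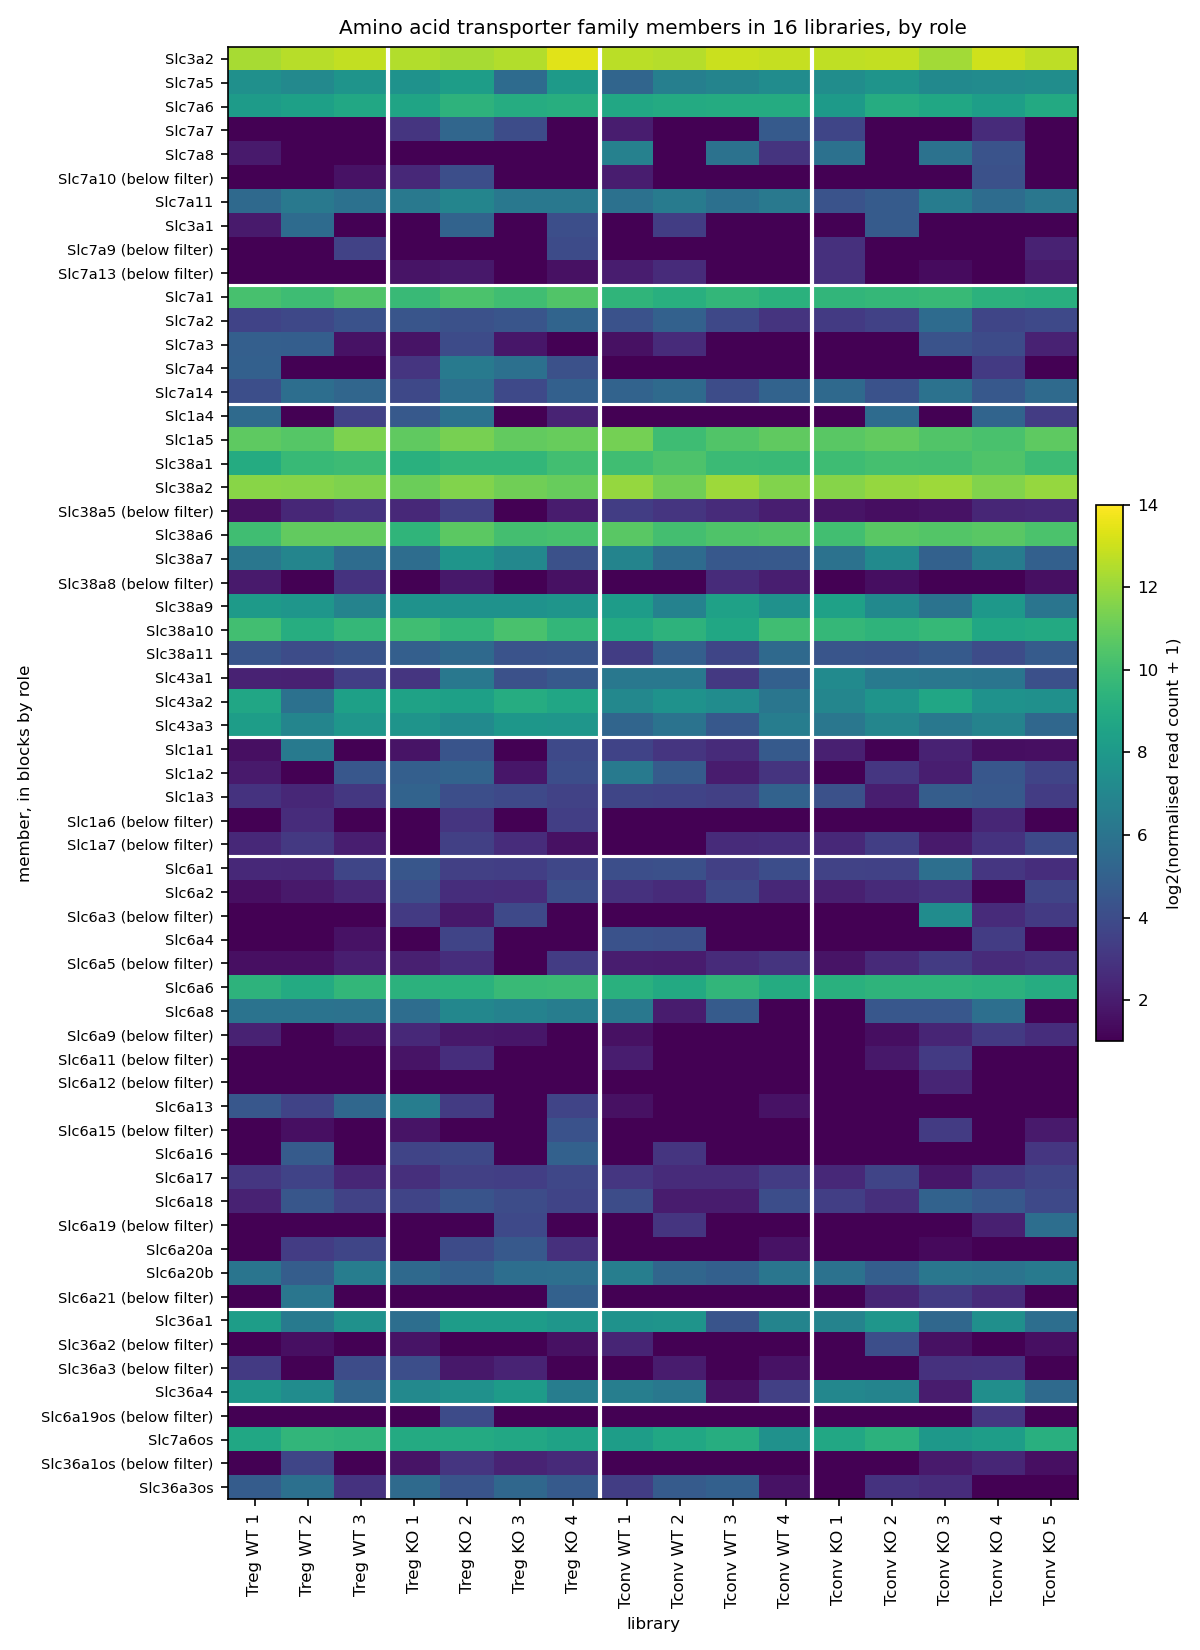
Each row is 1 of the 61 members, in blocks by role, and each column is 1 of the 16 libraries; colour is log2 of the normalised read count plus 1. Slc3a2, Slc1a5 and Slc38a2 are bright in all 16 libraries, while members marked as below the filter are dark in nearly all, with Slc6a3 in Tconv KO 3 (159) the brightest exception.

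Promoter sequence is shown for 3 transporters because they stand for different input and response routes: Slc7a1, which was higher in every Treg library than in any Tconv library; Slc38a2, which was lower in Treg KO than in Tconv KO; and Slc7a11, the cystine carrier known as a target of the stress factors Atf4 and Nrf2. Each is the 250 bases before an annotated start, 5′ to 3′ on the gene's own strand, from RefSeq on GRCm38.p6. Capitals mark matches on either strand to the Atf4 composite element TGATGNAA or the antioxidant response element TGACNNNGC, and the positions are chr5:148399905-148400154 (minus strand) for Slc7a1, chr15:96699729-96699978 (minus strand) for Slc38a2 and chr3:50443614-50443863 (minus strand) for Slc7a11.
Slc7a1: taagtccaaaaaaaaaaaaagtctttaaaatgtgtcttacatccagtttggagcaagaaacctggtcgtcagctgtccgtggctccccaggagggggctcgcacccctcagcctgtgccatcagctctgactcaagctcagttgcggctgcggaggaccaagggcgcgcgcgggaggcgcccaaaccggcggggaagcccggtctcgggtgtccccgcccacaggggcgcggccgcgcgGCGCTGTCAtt
Slc38a2: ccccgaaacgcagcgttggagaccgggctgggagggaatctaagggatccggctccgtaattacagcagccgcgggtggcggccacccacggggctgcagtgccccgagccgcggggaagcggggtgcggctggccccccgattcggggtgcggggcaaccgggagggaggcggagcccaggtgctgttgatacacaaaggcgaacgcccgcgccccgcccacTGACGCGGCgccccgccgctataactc
Slc7a11: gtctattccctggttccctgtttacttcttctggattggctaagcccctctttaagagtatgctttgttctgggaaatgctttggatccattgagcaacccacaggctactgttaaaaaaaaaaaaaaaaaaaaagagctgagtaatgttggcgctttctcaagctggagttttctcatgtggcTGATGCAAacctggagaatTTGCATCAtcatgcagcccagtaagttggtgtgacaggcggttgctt
Slc7a11 held the Atf4 element on both strands, 66 to 59 and 47 to 40 bases before the start. The antioxidant response element lay 11 to 3 bases before the start in Slc7a1 and 27 to 19 bases before it in Slc38a2. These hold for the starts shown: a second listed Slc7a1 promoter held none of the motifs searched. The RefSeq table held 64 promoters of 46 members. Of these, 4 promoters (6.25%) held the Atf4 element, against 3.45% of all 32851 promoters, and 10 (15.6%) held the antioxidant response element, against 10.2%. The E-box CACGTG was in 9 of the 64 (14.1%), against 6.02% of all. Member promoters had a median GC content of 57.4%, against 52.4% for all promoters. These letter matches are a description and do not show that a factor bound.

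Per kb of annotated exon (GENCODE M21), the highest level among the members was that of the CD98 heavy chain Slc3a2, in every group. Its mean was 1746 ± 309 for Treg WT, 1938 ± 745 for Treg KO, 1955 ± 242 for Tconv WT and 1929 ± 386 for Tconv KO (normalised read count per kb, SD, n = 3, 4, 4 and 5). The glutamine and neutral amino acid carrier Slc1a5 followed at 378 to 491 in the group means, and the neutral amino acid carrier Slc38a2 at 270 to 417. These carriers changed places: Slc1a5 had the higher mean per kb in all groups but Tconv KO, where Slc38a2 was at 417 ± 66.3 and Slc1a5 at 378 ± 63.0, closer than their SDs.

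Behind them, by the mean of the 4 group means per kb, came Slc38a6 (180), an Slc38 family carrier whose substrate is not well settled, and Slc38a10 (120). Slc7a6os (112), Slc7a6 (97.6), a CD98 light chain, and Slc7a1 (81.3) followed. From Slc38a10 on, each of these was within 1 SD of its neighbour in that order in at least 1 group. Of the k-mers of Slc38a6 (stretches of 31 bases), 40.7% are shared with another gene, chiefly Noct, so its level is uncertain. At the other end, 19 members missed the filter, and 7 of these had no library at 10 or more. The plot of levels per kb shows the 19 members at 10 or more in every library.

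**Figure D2:**
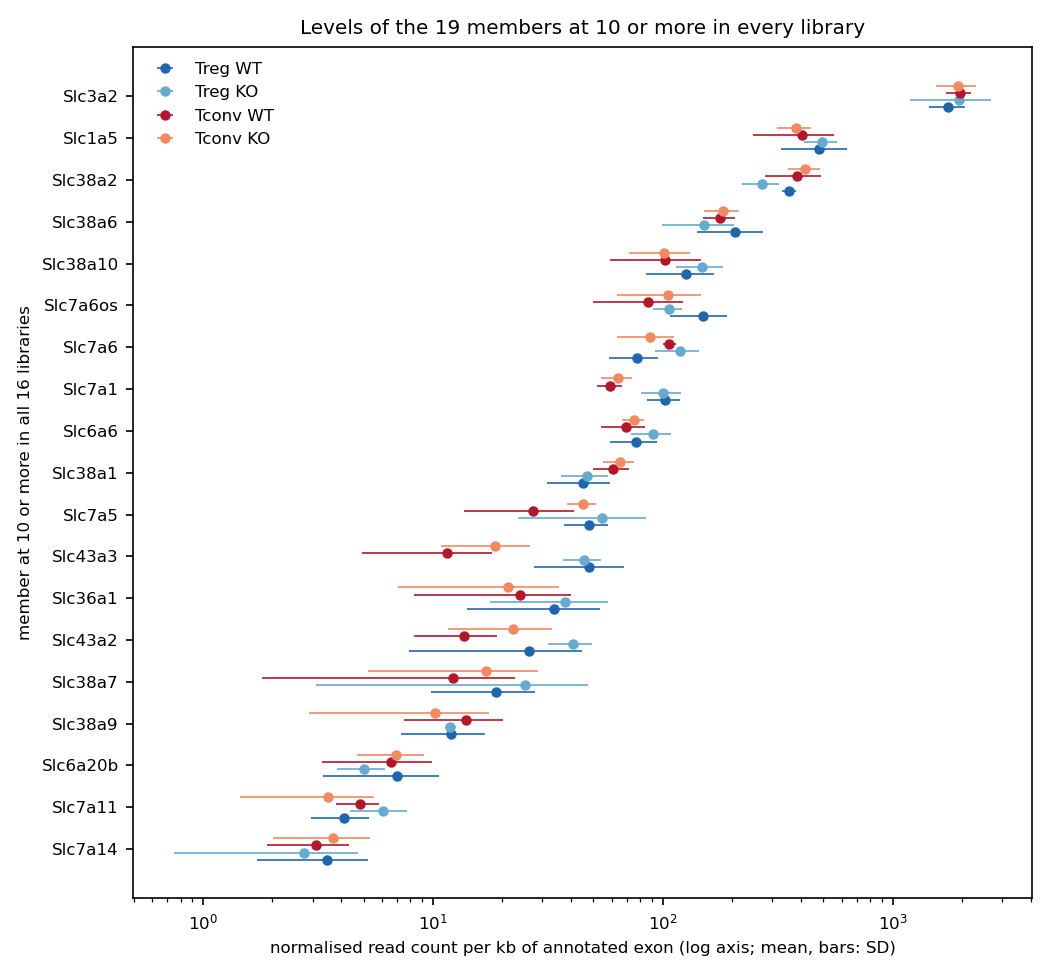
Points are group means of the normalised read count per kb of annotated exon on a log axis, with SD bars (n = 3, 4, 4 and 5), for the 19 members at 10 or more in all 16 libraries. Slc3a2 lies between 1746 and 1955 in each group, above all others, and the Treg and Tconv points part visibly for Slc7a1 and Slc43a3.

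The first question is how Treg and Tconv differ, taken as the mean of the WT and the KO difference. Of the 42 members tested, 7 were higher in Treg: the arginine carrier Slc7a1, Slc43a3, the creatine carrier Slc6a8, the GABA and taurine carrier Slc6a13, the proline carrier Slc6a20a, Slc7a4 and the opposite strand gene Slc36a3os. The branched chain amino acid carrier Slc43a1 was the 1 member called lower, and the other 34 did not pass. Slc6a13, Slc6a20a and Slc7a4 reached 10 in Treg libraries alone, and so passed the filter through the group where they are high. Their calls give no support, and the count is a description. Of the 37 tested members at 10 or more in libraries of both cell types, 4 were called higher and 1 lower. Over all 14319 genes tested, 6.61% were called higher and 5.15% lower. The tested members' median log2 difference was 0.27, and 0.25 for those 37, against 0.01 over all genes. Every adjusted p below comes from limma, adjusted after Benjamini and Hochberg across the 14319 genes, with calls made under 0.05. Treg and Tconv libraries were not paired in this fit. Fewer members were called with a block for the replicate number, which WT and KO libraries share and which does not pair by animal. Differences are on the scale of log2(value + 1), which understates the change of low genes.

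Among the carriers of cationic amino acids, Slc7a1 is the main arginine importer of many cells (chr5:148327410-148399904 in the GENCODE M21 annotation, 14 exon blocks). It read 1178, 993 and 1379 in Treg WT and 894, 1275, 1042 and 1407 in Treg KO. In Tconv WT it read 726, 596, 778 and 627, and in Tconv KO 761, 806, 868, 651 and 594. All 7 Treg libraries lay above all 9 Tconv libraries, and the genotypes overlapped within each cell type. The difference was 0.72 ± 0.15 (log2, SE), a 1.64-fold higher level in Treg (adjusted p = 0.00229). Slc7a1 was the only tested member whose Treg and Tconv libraries did not overlap. That is 1 of 42, beside 1.77% of all genes that did not overlap with Treg higher and 1.35% with Treg lower.

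The difference in Slc7a1 was 0.79 ± 0.22 within WT (adjusted p = 0.0472) and 0.64 ± 0.19 within KO (adjusted p = 0.0512). The second missed the threshold, and the difference between these effects was -0.15 (95% interval -0.76 to 0.46). With the 3 Tconv libraries that stood apart left out, the mean difference was 0.82 (adjusted p = 0.00313). The call in the mean comparison held with any 1 library left out, whereas that within WT was lost in 10 of 16 such fits (adjusted p 0.0506 to 0.196), namely without Treg WT 1, Treg WT 3, Treg KO 2, Treg KO 3, Tconv WT 1, Tconv WT 2, Tconv WT 4, Tconv KO 1, Tconv KO 2 or Tconv KO 4.

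Slc7a4, an Slc7 member related to the cationic carriers, was read at low levels. It was 30.2, unread and unread in Treg WT, and 7.03, 82.4, 54.8 and 17.5 in Treg KO. In Tconv it was unread in 8 of 9 libraries and 8.18 in Tconv KO 4. Every Treg KO library held reads, and 2 of the 3 Treg WT libraries held none. The log2 difference was 2.37 ± 0.67 (adjusted p = 0.0252), and within KO it was 3.41 ± 0.89 (adjusted p = 0.0219). It passed the filter through Treg libraries alone, so a difference was built into its being tested. Leaving out the 3 Tconv libraries that stood apart gave an adjusted p of 0.0915 for the mean and 0.0605 within KO. Without Treg WT 1, Treg KO 2 or Treg KO 3 the mean comparison no longer called it (adjusted p 0.0523 to 0.0893), nor did the KO comparison without Treg KO 2, Treg KO 3, Tconv KO 1, Tconv KO 2 or Tconv KO 5 (0.0510 to 0.0819). One of its exons overlaps P2rx6, with which it shares most of the 9.75% of its k-mers found in other genes.

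The other cationic members did not pass. Slc7a2, Slc7a3 and Slc7a14 had log2 differences of 0.25, 0.94 and -0.20.

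In the Slc43 family, 1 of 3 members was higher in Treg and 1 lower, beside 6.61% and 5.15% of all genes. Slc43a3, reported to carry purine nucleobases, read 299, 121 and 223 in Treg WT and 208, 148, 233 and 226 in Treg KO. It read 36.2, 59.9, 23.1 and 89.9 in Tconv WT and 70.3, 126, 74.0, 113 and 39.2 in Tconv KO. Within each genotype the cell types did not overlap, but Tconv KO 2 (126) lay above Treg WT 2 (121). The difference was 1.72 ± 0.36 (3.298-fold, adjusted p = 0.00278). It was 2.09 ± 0.54 within WT (adjusted p = 0.0305) and 1.35 ± 0.48 within KO (adjusted p = 0.106). Without the 3 Tconv libraries that stood apart it was 1.38 (adjusted p = 0.0202) for the mean and 1.44 (adjusted p = 0.217) within WT. The call within WT was also lost without Treg WT 1, Treg WT 3, Tconv WT 1 or Tconv WT 3 (adjusted p 0.0679 to 0.126).

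Slc43a1, a carrier of branched chain amino acids, lies on the same chromosome (chr2:84838850-84863594, with Slc43a3 at chr2:84936579-84958509) and differed in the other direction. It read 3.74, 3.62 and 9.82 in Treg WT and 7.03, 73.2, 17.99 and 23.4 in Treg KO. It read 73.4, 72.0, 8.04 and 30.3 in Tconv WT and 151, 80.5, 69.2, 66.4 and 16.99 in Tconv KO. Treg KO 2 was above 6 of the 9 Tconv libraries, and Tconv WT 3 lay within the Treg WT range. The difference was -1.99 ± 0.63 (adjusted p = 0.0438), and without the 3 Tconv libraries -2.195 (adjusted p = 0.0502). Leaving out 1 library lost the call in 12 of 16 fits (adjusted p 0.0583 to 0.0909), all but those without Treg WT 3, Treg KO 2, Tconv WT 3 or Tconv KO 5. The third member, Slc43a2, also a carrier of branched chain amino acids, had a difference of 0.78 ± 0.37 (adjusted p = 0.212).

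In the Slc6 family, 3 of 11 tested members were higher in Treg and none was lower, beside 6.61% and 5.15% of all genes. Of these 3, Slc6a13 and Slc6a20a passed the filter through Treg libraries alone, so the count is a description. The creatine carrier Slc6a8 read 60.3, 60.3 and 58.3 in Treg WT and 49.2, 127, 109 and 88.6 in Treg KO. It read 73.4, 3.03, 25.2 and unread in Tconv WT, and unread, 22.04, 22.3, 52.9 and unread in Tconv KO. The Treg libraries were all read, whereas Tconv ran from unread to a level within the Treg range. The difference was 2.78 ± 0.82 (adjusted p = 0.0318), and 3.91 (adjusted p = 0.00314) without the 3 Tconv libraries, of which Tconv WT 1 held the highest Tconv value. Leaving out 1 library lost the call in 10 of 16 fits (adjusted p 0.0522 to 0.0645), all but those without Treg KO 1, Tconv WT 1, Tconv WT 3, Tconv KO 2, Tconv KO 3 or Tconv KO 4.

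Slc6a13 (GAT2) carries GABA and taurine. It read 21.99, 11.5 and 39.6 in Treg WT and 89.0, 8.68, unread and 11.7 in Treg KO. In Tconv WT it read 2.03, unread, unread and 2.13, and all 5 Tconv KO libraries were unread. The 2 Tconv libraries with reads held 1 read each, and 6 of 7 Treg libraries held more. The difference was 2.90 ± 0.63 (adjusted p = 0.00365). It too passed the filter through Treg libraries alone. Against the unread Tconv KO libraries, with the mean value of 3 reads per library as the floor, the Treg KO mean was at least 8.40-fold higher with Treg KO 1 and at least 2.17-fold higher without it. The call held with any 1 library left out and without the 3 Tconv libraries (2.89, adjusted p = 0.0223).

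Slc6a20a, a proline carrier, was unread in Treg WT 1 and read 8.85 and 12.0 in the other Treg WT libraries. It was unread in Treg KO 1 and read 14.8, 23.7 and 5.87 in the others. Among Tconv only Tconv WT 4 (2.13) and Tconv KO 3 (1.51) held reads. The difference of 1.77 ± 0.56 (adjusted p = 0.0463) rested on at most 16 reads in a library and on a filter passed through Treg libraries alone. It was lost without the 3 Tconv libraries (adjusted p = 0.143), and without any 1 Tconv library, Treg WT 2 or Treg KO 4 (0.0551 to 0.104). Without Treg WT 3, Treg KO 2 or Treg KO 3 the gene fell below the filter and was not tested, so the call held in 2 of the 16 cases, without Treg WT 1 or Treg KO 1. Of its k-mers, 32.0% are shared with other genes, chiefly its paralog Slc6a20b, so reads could be split between them. Slc6a20b itself was read in every library and did not pass. Its level is uncertain too, since 21.1% of its exon bases overlap Sacm1l on the other strand. Of its k-mers, 31.5% are shared, chiefly with Sacm1l. The taurine carrier Slc6a6, the most read Slc6 member per kb, differed by 0.21 ± 0.16 (95% interval -0.13 to 0.55).

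Slc36a3os is an antisense RNA gene (chr11:55137044-55140193, 2 exon blocks) named after the proton coupled carrier Slc36a3. It read 26.6, 54.2 and 6.51 in Treg WT and 44.4, 19.4, 39.2 and 24.4 in Treg KO. It read 9.27, 25.4, 30.2 and 2.13 in Tconv WT, and unread, 6.45, 5.31, unread and unread in Tconv KO. The cell types overlapped in WT and not in KO. The difference was 2.04 ± 0.63 (adjusted p = 0.0404), and within KO 3.25 ± 0.83 (adjusted p = 0.0198). Without the 3 Tconv libraries these were 2.40 (adjusted p = 0.0413) and 3.49 (0.0211). Leaving out 1 library lost the mean call in 10 of 16 fits (adjusted p 0.0575 to 0.110), all but those without Treg WT 3, Treg KO 2, Tconv WT 2, Tconv WT 3, Tconv KO 2 or Tconv KO 3. The call within KO was lost without Treg KO 1, Treg KO 3, Tconv KO 1 or Tconv KO 5 (0.0511 to 0.0647). The library kit does not mark strand, so reads from an overlapping gene on the other strand could not be told apart, although no annotated exon of another gene overlaps its own. Slc36a3 itself missed the filter. The carriers Slc36a1 and Slc36a4, which move small amino acids with protons, had differences of 0.79 ± 0.54 and 1.98 ± 0.81 and did not pass (adjusted p = 0.426 and 0.131).

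**Figure D3:**
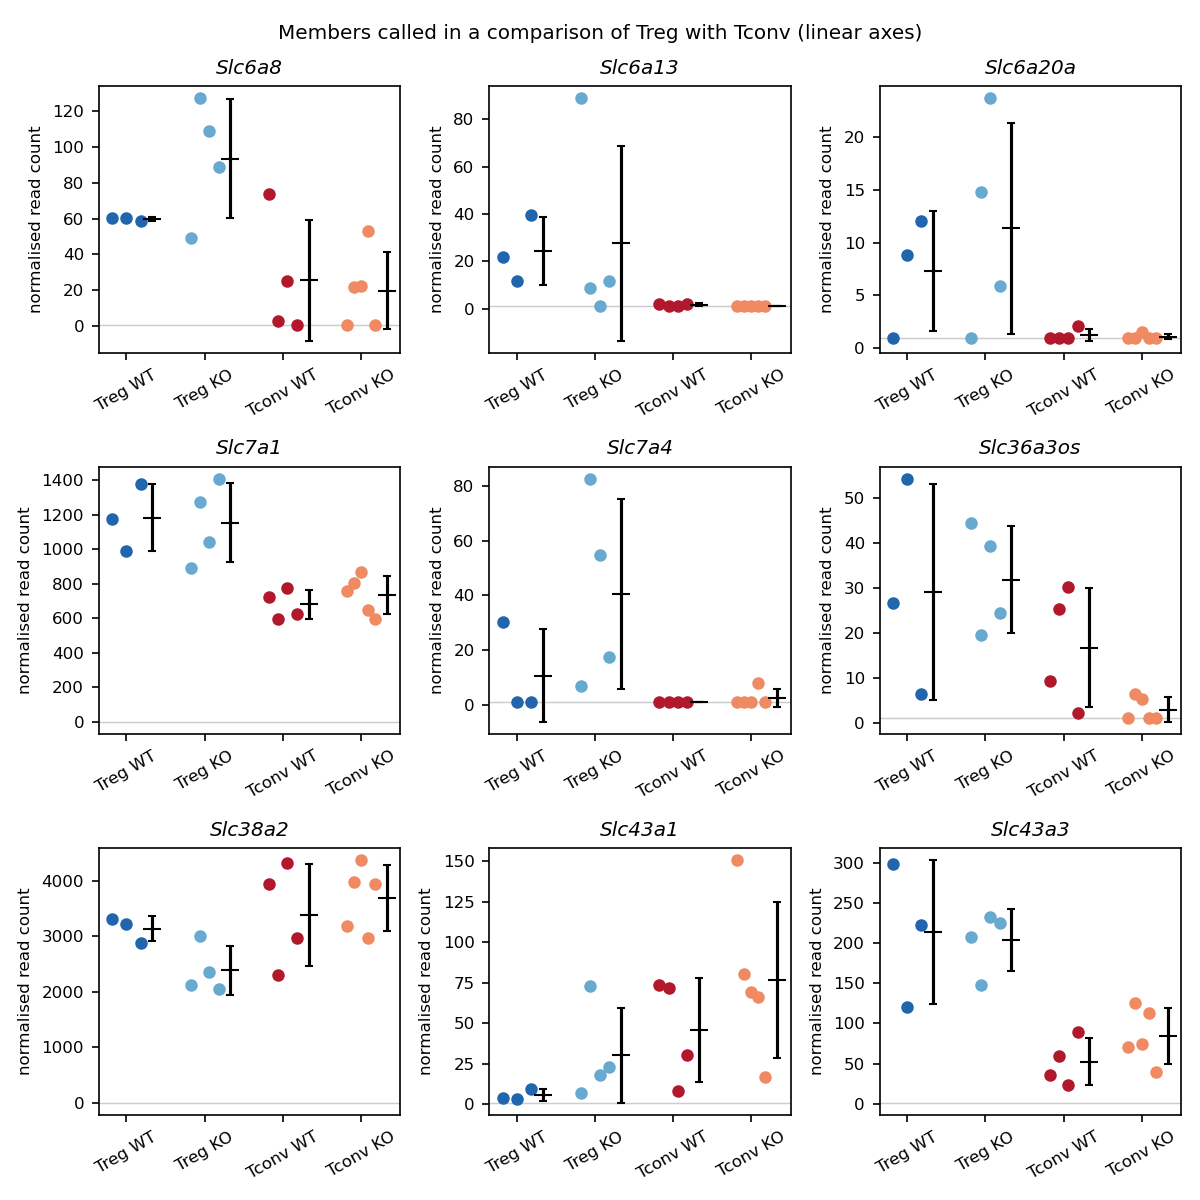
Points are the normalised read counts of single libraries for the 9 members called in a comparison of Treg with Tconv, on linear axes, with the group mean and SD in black (n = 3, 4, 4 and 5). All Treg points of Slc7a1 (894 to 1407) lie above all its Tconv points (594 to 868), while the other panels show overlap between some groups.

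The glutamine and neutral amino acid carriers showed no member called in the mean comparison (0 of 9 tested). Slc38a2, the carrier induced when amino acids are scarce, passed within KO only. It read 3307, 3228 and 2880 in Treg WT and 2129, 3011, 2356 and 2046 in Treg KO. It read 3938, 2307, 4326 and 2974 in Tconv WT and 3188, 3980, 4372, 2973 and 3935 in Tconv KO. Treg KO lay below Tconv KO except for Treg KO 2, which was above Tconv KO 4 by a small margin. The difference within KO was -0.63 ± 0.19 (adjusted p = 0.0455), and -0.57 (adjusted p = 0.0578) without the 3 Tconv libraries. Without Treg WT 1, Treg KO 1, Treg KO 3, Treg KO 4, Tconv WT 4, Tconv KO 1, Tconv KO 2, Tconv KO 3 or Tconv KO 5 it was not called (0.0523 to 0.141). Within WT it was -0.07 ± 0.21, and the difference between these did not pass (adjusted p = 0.928).

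Slc1a5 differed by 0.34 ± 0.18 (95% interval -0.04 to 0.71), and the glutamine carrier Slc38a1 by -0.47 ± 0.16 (adjusted p = 0.07035). Slc38a6 differed by -0.07 ± 0.18 and Slc38a10 by 0.46 ± 0.22 (adjusted p = 0.868 and 0.217).

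No CD98 subunit was called in any comparison. Slc3a2 read 5045, 6216 and 7223 in Treg WT and 5744, 5027, 5851 and 10744 in Treg KO. It read 6466, 5950, 7845 and 7342 in Tconv WT and 7036, 7085, 4734, 8527 and 6660 in Tconv KO. The groups overlapped fully, and the difference was -0.10 ± 0.15 (95% interval -0.43 to 0.22). The light chain Slc7a5 (LAT1) differed by 0.46 ± 0.38 (95% interval -0.34 to 1.26), Slc7a6 by -0.02 ± 0.19 and the cystine light chain Slc7a11 by 0.35 ± 0.40.

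Slc7a8 (LAT2), a further light chain for neutral amino acids, had the most negative difference of the 42 members at -2.73 ± 0.89, and missed the threshold (adjusted p = 0.0524). It was chosen for mention after its values were seen, and it passed the filter through Tconv libraries alone. It read 2.83 in Treg WT 1 and unread in the other 6 Treg libraries. It read 105, unread, 59.4 and 6.63 in Tconv WT and 56.9, unread, 58.3, 19.3 and unread in Tconv KO. Within Tconv the highest levels were thus in Tconv WT 1, Tconv WT 3, Tconv KO 1 and Tconv KO 3. In 3 of these 4, Tconv WT 1, Tconv WT 3 and Tconv KO 3, Il5, the cytokine gene of type 2 lymphocytes, read 600, 426 and 940, and Il1rl1 (ST2, the receptor for IL-33) read 1566, 1746 and 2548. In the other 6 Tconv libraries, Tconv KO 1 included, Il5 was at most 52.4 and Il1rl1 at most 201. Without those 3 libraries Slc7a8 was at 10 or more in 2 of 13 libraries, and so below the filter. The part of such cells in the Slc7a8 values was not tested. Among Treg, Il5 ran from unread to 177 and Il1rl1 from 1725 to 14889, with Slc7a8 at most 2.83. Il1rl1 is a gene that fat Treg share with type 2 lymphocytes, so these Treg values do not bear on the Tconv libraries.

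Within WT alone, 2 members were called higher (Slc7a1 and Slc43a3) and none lower, beside 2.2% and 1.98% of all genes. Within KO alone, 2 were higher (Slc7a4 and Slc36a3os) and 1 lower (Slc38a2), beside 4.16% and 2.65%. The WT and KO comparisons share no library. Of the 42 members, 24 (57.1%) had the same sign in both, against 64.5% of all genes tested. Among the 19 members at 10 or more in every library, 12 had the same sign. Members called in 1 genotype and not in the other were not shown to differ between genotypes, since no member passed the test of the difference.

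**Figure D4:**
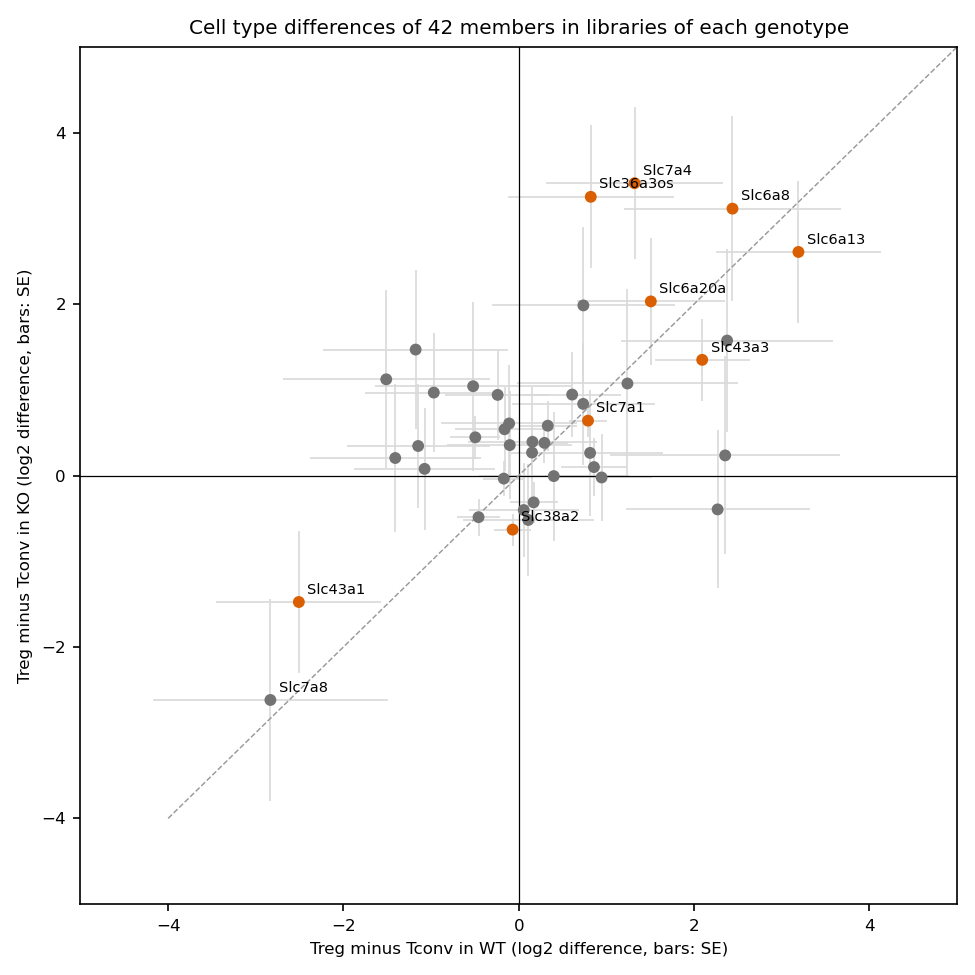
Each point is 1 of the 42 members tested, with the Treg minus Tconv log2 difference in WT libraries on the x axis and in KO libraries on the y axis, bars showing SE; orange marks the 9 members called in a comparison of cell types. Slc6a13, Slc6a8 and Slc43a3 lie in the upper right, Slc43a1 and Slc7a8 in the lower left, and 24 of 42 points have the same sign on both axes.

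The second question is what the loss of Hpgd in Treg changed. No transporter member passed in Treg KO against Treg WT, in Tconv KO against Tconv WT, or in the difference between these effects. Over all genes the share called was 0.021% (3 genes) in Treg, 0% in Tconv and 0% for the difference. At an unadjusted p under 0.05 the members numbered 3, 1 and 1 of 42, and the genes 890, 781 and 748 of 14319. The members' median difference was 0.26 in Treg (all genes 0.08), 0.02 in Tconv (all genes 0.02) and 0.23 for the difference of effects (all genes 0.06). Treg WT is shared between the comparison of genotypes in Treg and that of cell types in WT.

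For the well-read carriers the intervals were narrower than for members with few reads. In Treg, Slc3a2 differed by 0.10 between KO and WT (95% interval -0.39 to 0.58), Slc1a5 by 0.06 (-0.50 to 0.63) and Slc7a1 by -0.04 (-0.50 to 0.41). In Tconv, the same genes differed by -0.04 (-0.46 to 0.39), -0.02 (-0.52 to 0.47) and 0.11 (-0.30 to 0.51). Slc38a2 and Slc38a6 lay further from no change in Treg, at -0.41 (-0.85 to 0.03) and -0.45 (-1.03 to 0.12). They did not pass (adjusted p = 0.821 and 0.840). Their Tconv differences were 0.15 (-0.24 to 0.54) and 0.03 (-0.47 to 0.54). These intervals are not adjusted for the number of genes tested and are not limits of detection. With 3 to 5 libraries a group, changes within them are not excluded.

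Some groups did not overlap. Of the 42 members, Slc1a3 and Slc6a2 were higher in every Treg KO than in any Treg WT library and none was lower, beside 3.35% and 2.66% of all genes. In Tconv, Slc1a1 was lower in every KO library and none was higher, beside 0.803% and 0.866%. Slc1a3 and Slc6a2 were named after their values were seen, and did not pass (adjusted p = 0.840 and 0.830).

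In Treg, the 3 members with the smallest unadjusted p were Slc7a4, Slc7a7 and Slc7a6. Slc7a4 had a difference of 2.53 ± 1.01, with the values given above (adjusted p = 0.741). Slc7a7, a CD98 light chain for cationic and neutral amino acids that macrophages also express, was unread in all 3 Treg WT libraries and read 7.03, 37.9, 15.2 and unread in Treg KO. Its difference was 2.33 ± 1.06 (adjusted p = 0.789). The macrophage marker list of 8 genes summed to 0.872 to 34.2 in Treg WT, with C1qa, C1qc and Lyz2 at 0 reads. In Treg KO 1, 2, 3 and 4 the sum was 274, 79.9, 22.7 and 34.1, and these libraries ranked differently by Slc7a7. The part of such cells in the Slc7a7 values was not tested. Slc7a6 read 276, 339 and 445 in Treg WT and 387, 672, 533 and 575 in Treg KO, a difference of 0.62 ± 0.29 (adjusted p = 0.795). The Treg groups overlapped, with Treg KO 1 below Treg WT 3. Its Tconv difference was -0.33 ± 0.25, and the difference of effects was 0.94 ± 0.38 (adjusted p = 0.928).

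In Tconv, the 3 members with the smallest unadjusted p were Slc36a3os (-1.96 ± 0.83, adjusted p = 0.887), the neutral amino acid carrier Slc1a4 and the glutamate carrier Slc1a1. Slc1a4 was unread in all 4 Tconv WT libraries, in Tconv KO 1 and in Tconv KO 3, and read 46.2, 36.1 and 8.996 in the other Tconv KO libraries, a difference of 2.22 ± 1.15 (adjusted p = 0.928). Slc1a1 read 11.3, 7.09, 5.03 and 24.6 in Tconv WT and 3.43, unread, 3.79, 1.798 and 1.89 in Tconv KO. The difference of -1.79 ± 0.99 did not pass (adjusted p = 0.931). Of the k-mers of Slc1a1, 31.5% are shared, chiefly with 4430402I18Rik, whose exon it overlaps. In the difference of effects, Slc36a3os had 2.43 ± 1.26 and Slc38a2 -0.56 ± 0.28 (adjusted p = 0.928 for both).

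**Figure D5:**
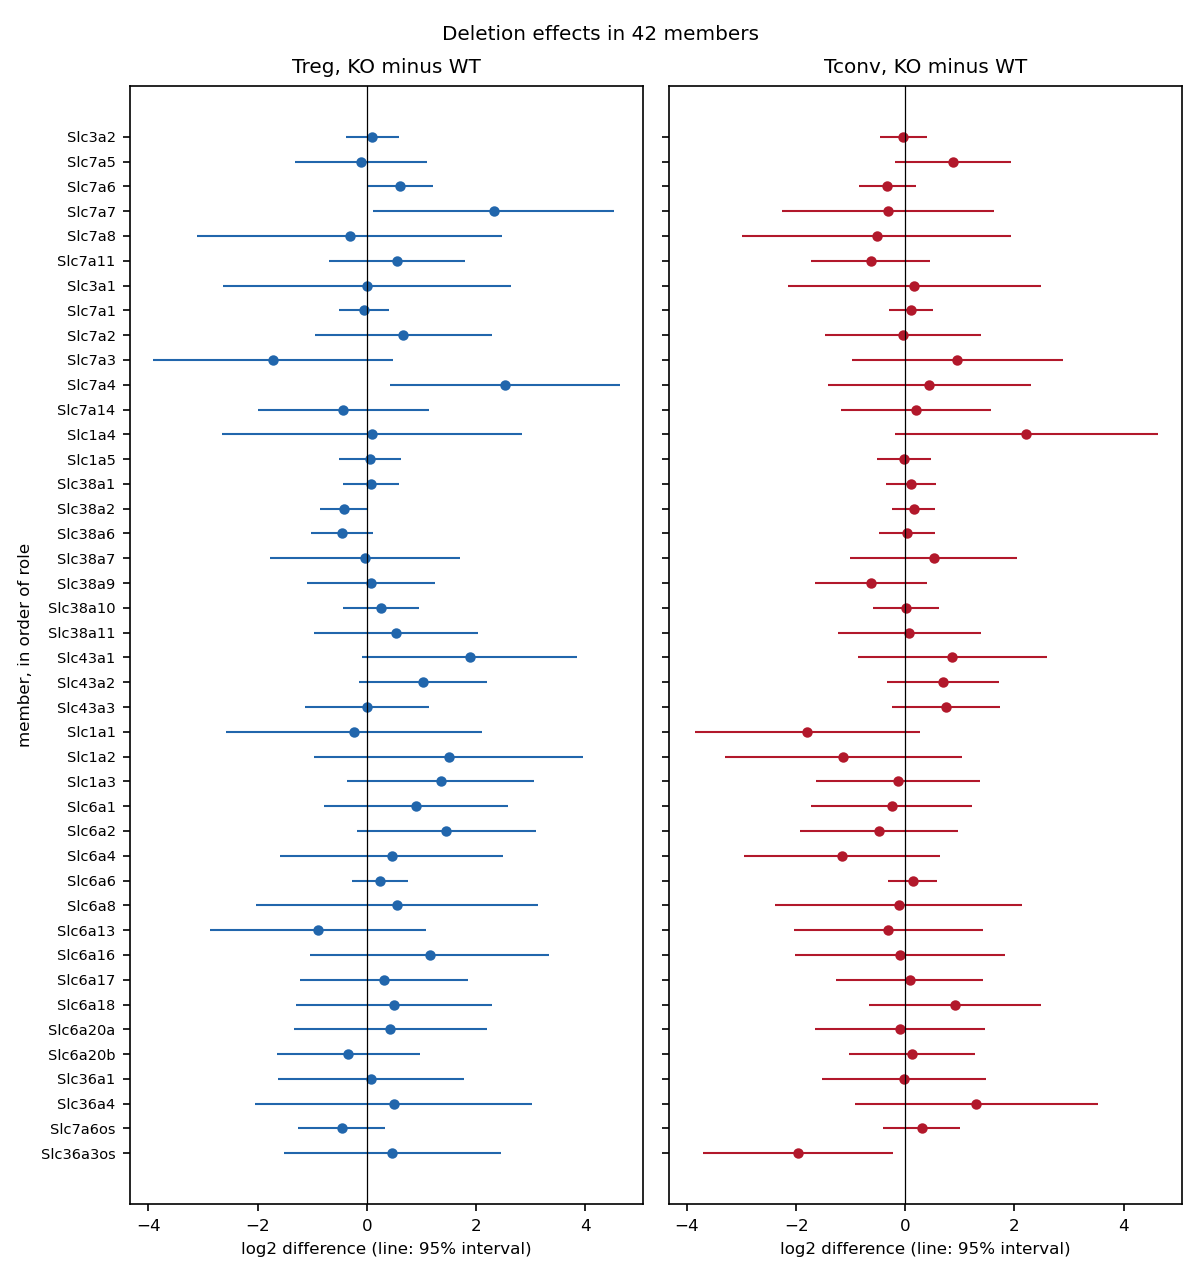
Points are log2 differences between KO and WT for the 42 members tested, in Treg (left) and Tconv (right), and lines are 95% intervals. The widest intervals in both panels belong to Slc7a8 and Slc1a4, each unread in several libraries, and no member passed at an adjusted p under 0.05.

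Some members were read strongly in a few libraries. Slc6a3, the dopamine carrier, was unread or at most 13.7 in 15 libraries and read 159 in Tconv KO 3, from 1248 reads. Slc6a19 read 50.8 in Tconv KO 5 and Slc6a21 68.2 in Treg WT 2 and 32.1 in Treg KO 4. These members, named after their values were seen, reached 10 in too few libraries to be tested.

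The genes that sense or use amino acids came from 8 lists, and their calls are from the mean comparison of Treg with Tconv. Over all genes tested, 6.61% were called higher and 5.15% lower. The counts of all 8 lists are to be read beside these shares and are a description. Of the 35 tested genes of amino acid sensing and mTORC1, 3 were higher and 2 lower in Treg, near the shares over all genes. Sesn1, of the sestrin family that senses leucine, was higher by 1.41 ± 0.25 (adjusted p = 0.000642), with 489 to 1049 in Treg and 113 to 400 in Tconv. Fnip2, a partner of folliculin in lysosomal signalling, was higher by 2.47 ± 0.61, and Lamtor3, of the complex that holds mTORC1 at the lysosome, differed by -0.76 ± 0.22. The count of 5 fell to between 2 and 3 without Treg WT 1, Treg WT 3, Treg KO 1, Treg KO 4, Tconv WT 1 or Tconv KO 2. The list's median was -0.04, against 0.01 over all genes.

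In glutamine and glutamate metabolism, 4 of 19 tested genes were higher and none lower, with a list median of 0.16. The polyamine enzyme Odc1 differed by 1.54 ± 0.26, the aspartate aminotransferase gene Got1 by 1.36 ± 0.23 and the glutamine synthetase gene Glul by 1.57 ± 0.29 (adjusted p = 0.000404, 0.000413 and 0.000926). The Treg and Tconv ranges of these 3 overlapped. In the Atf4 response list 1 of 21 tested genes was higher, the secreted factor Stc2, by 3.95 ± 0.68 (42.9 to 159 in Treg, 1 to 29.2 in Tconv, adjusted p = 0.000434). The count was 2 without Treg WT 2, Tconv WT 2 or Tconv KO 3.

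In cysteine and glutathione metabolism, which Slc7a11 feeds, 2 of 12 tested genes were higher. Gpx4, the enzyme that reduces lipid peroxides, differed by 1.19 ± 0.14 (3131 to 5610 in Treg, 1526 to 2672 in Tconv, adjusted p = 6.53e-06) and Gpx1 by 0.76 ± 0.18. Of branched chain and methionine metabolism, 1 of 19 was higher (Bcat2, the mitochondrial transaminase, 0.91 ± 0.27) and 1 lower (Dbt, of the branched chain dehydrogenase, -2.42 ± 0.69). None of the 11 tested genes of arginine and tryptophan catabolism was called. Among 17 other amino acid and peptide transporters 1 was lower (the mitochondrial serine carrier Sfxn1, -0.73 ± 0.22), and among 23 cytosolic aminoacyl-tRNA synthetases 1 was higher (Eprs, 0.78 ± 0.16). Leaving out 1 library moved these counts to 0 to 2 for branched chain and methionine metabolism, 0 to 1 for arginine and tryptophan catabolism, 0 to 2 for the other transporters and 1 to 3 for the synthetases. No gene of these lists was called between KO and WT.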

How the data were processed

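RNA of 16 sorted T cell libraries was sequenced. Per the labels' protocols, 10 ng of RNA was made into SMART-seq2 libraries, which do not mark strand, sequenced on a NextSeq 500 and converted with bcl2fastq2 2.20. Tools in the submitters' processing notes are kallisto 0.44, CASAVA 1.8, DESeq2, Partek 6.6 and R 3.3.1, with the build mm10 and no roles. The deposited signal is read counts divided by a size factor, plus 1, as its values show: after subtracting 1, 100% of values under 1000 reads were whole within 0.1 read. For counting, annotation and strand setting are not stated there.

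The filter of 10 or more in 3 or more libraries kept 14319 of 19540 genes, which were tested on log2(value + 1) with limma 3.58.1 in R 4.3.3. The model had a mean-variance trend, all 16 libraries and 4 groups sharing 1 spread, 2-sided, with Benjamini-Hochberg adjustment, and was tested on simulated data. With 3390220 to 56653889 reads a library, floors of 3 reads cover counting error only, since reads are not independent molecules. Members, lists and comparisons were chosen with earlier results of these data known. Named with values are members called in any comparison, the 8 highest per kb, the 3 with the smallest p in each comparison of genotypes, and up to 3 called genes per list. Exon lengths, overlaps and shared stretches of 31 bases came from GENCODE M21. Alternatives covered filters, pseudocounts, scaling, voom, weights, a replicate block, only the groups compared, and leaving out libraries. Same-numbered Treg and Tconv libraries deviated together at r of at most 0.0787 (7 pairs), below the 0.1 set for pairing, so the main fit used no block. Each of the 7 Treg libraries nevertheless correlated best with the Tconv library of its own number. Libraries of the same number and genotype may thus come from the same animal, which was not tested. A fit with a block for the replicate number called fewer members, as given below. That block joins WT and KO libraries of the same number, which are different mice. It is therefore not a fit paired by animal, and none was run.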

Additional observations from a re-analysis of the deposited data

Results flagged for a closer look

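Of 54 groups of 4 or 5 libraries looked at among the 18 named members, 3 held a library set apart from all others of its group. No chance rate is given, since any read in an otherwise unread group sets its library apart. All 3 are libraries with reads where the rest of the group had none. Slc6a20a was 2.13 in Tconv WT 4 and 1.51 in Tconv KO 3, with the other libraries of each group unread, which is 1 and 4 reads. Slc7a4 was 8.18 in Tconv KO 4, from 9 reads, with the other 4 Tconv KO libraries unread.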

How the results depend on the processing

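Across up to 27 alternatives, no called member changed direction. In the mean comparison Slc7a1 and Slc43a3 kept their call in 26 of 26 and Slc6a13 in 25 of 25, with adjusted p (limma) of 0.00138 to 0.00993, 0.00147 to 0.0202 and 0.000497 to 0.0223. Slc6a13, like Slc6a20a and Slc7a4, passed the filter through Treg libraries alone, so its repeated call gives no support. Slc6a20a lost it in 19 of 22 (and was below the filter in others, among them without Treg WT 3, Treg KO 2 or Treg KO 3), Slc43a1 in 15 of 26, Slc36a3os in 14 of 25, Slc6a8 in 12 of 26 and Slc7a4 in 5 of 25. Of the calls within WT, Slc7a1 was lost in 16 of 27 and Slc43a3 in 7 of 27; within KO, Slc38a2 in 13 of 27, Slc7a4 in 7 of 26 and Slc36a3os in 4 of 26. Quantile scaling kept the count of the mean comparison at 8, but as 5 higher and 3 lower, against 7 and 1 in the main fit. Of these 8, 6 were shared with the main fit. The mean comparison called 8 members, and 4 with the filter at 50 (fewer genes tested), 5 with a pseudocount of 0.1, 5 with Tconv KO 3, Tconv WT 1 and Tconv WT 3 all left out (chosen after seeing the data), and 3 to 7 leaving out 1 library, the lowest without Treg KO 3. Within WT it called 2, and 1 without a filter, 0 with voom, 1 with quality weights, 0 with only the groups compared, 0 without those 3 libraries, and 0 to 3 leaving out 1 library (0 without Treg WT 1, Treg WT 3 or Tconv WT 1). Within KO it called 3, and 5 with voom, 5 with quality weights, and 0 to 4 leaving out 1 library (0 without Tconv KO 1 or Tconv KO 5). The cause of these moves was not tested beyond the smaller sets. With the replicate block the counts were 5, 1 and 1, although the numbers do not pair the libraries by the rule used; as a hint from the data, each of the 7 Treg libraries correlated best with the Tconv library of its own number. Comparisons of genotypes called 0 members under every alternative run. edgeR was not run. Slc6a20a held at most 16 reads in a library.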
